A study of Danio rerio with 6 samples.

Results

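Hox genes are the zebrafish members of the homeobox family that is arranged in chromosomal clusters, and they are described here in guts of larvae raised without microbes. Every row of the deposited gene table whose symbol has the form of a zebrafish Hox gene, a cluster letter, a paralog number and a duplicate letter, was taken, which gave 48 of 15419 rows. The choice used names and no measured value. Bulk RNA-seq had been done on guts dissected from larvae at 5 days post-fertilization, with 10 to 15 guts pooled in each library. The WT GF group held 3 libraries of AB wild-type larvae, and the *il26*-/- GF group held 3 libraries of larvae homozygous for a CRISPR/Cas9-made deletion in *il26*, the gene of a cytokine of the IL-10 family. All 6 libraries came from germ-free (GF) larvae, since the eggs of both genotypes had been surface-sterilized with bleach and hypochlorite and kept in sterile medium with ampicillin, kanamycin, ceftazidime and chloramphenicol. Parents of both genotypes came from the same clutch and lived in separate tanks, so genotype and parental tank cannot be told apart here. No microbe-bearing group is in these libraries, so each comparison is between the genotype groups under germ-free conditions only.

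Hox proteins are homeodomain transcription factors that give cells their position along the head-to-tail axis. Within a cluster the order of the genes follows the order of the body levels at which they act, from low paralog numbers in the hindbrain and pharynx to high ones in the tail. In the vertebrate gut tube, Hox genes are transcribed mainly in the mesoderm that becomes smooth muscle and connective tissue, and in enteric neurons that descend from neural crest, with high paralog numbers in the hindgut. Teleosts carry duplicates of most clusters, and zebrafish keep Hox protein genes in the clusters Aa, Ab, Ba, Bb, Ca, Cb and Da. Paralog groups 1 to 4 are called anterior below, groups 5 to 8 central and groups 9 to 13 posterior.

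Libraries held from 7528412 to 38143258 counts, with the smallest in *il26*-/- GF replicate 1 and the largest in *il26*-/- GF replicate 2. At these depths 3 counts correspond to between 0.0765 and 0.369 CPM (counts per 1000000 of the TMM-scaled library size), which covers counting error only. Of the gut epithelium genes listed, *vil1*, *cldn15la* and *cdh1* were high in every library, while *fabp2* had only 84 counts in all 6 libraries together. No library had a count on *il26* itself, so the genotype could not be checked from it and libraries are named by their labels. Genes with 0 counts everywhere made up 1837 rows. They include *psma5* and *psmc6*, subunits of the proteasome that every cell uses, and *epcam*, an epithelial adhesion gene, had 1 count in all 6 libraries together, so a 0 in this table cannot be read as absence of the transcript.

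Hox rows held 7071, 5866 and 10036 counts in the WT GF libraries and 2616, 11321 and 4356 counts in the *il26*-/- GF libraries. That was between 0.0271% and 0.0347% of each library. Of the counts on Hox genes, 33.7% lay on the Ba cluster, 26.1% on Ca, 15.4% on Da, 14.6% on Aa, 8.08% on Ab, 2.22% on Cb and none on Bb. By level, 32.1% lay on anterior, 19.3% on central and 48.7% on posterior genes. These are shares of counts and were not corrected for transcript length, so they do not rank the genes by level. The filter on low counts kept 41 of the 48 rows. The rows left out were the 4 Bb genes with 0 counts, *hoxb1a*, *hoxc12b* and *hoxc13b*.

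The central comparison asked whether Hox genes differ between germ-free guts with and without *il26*. None of the 41 Hox genes tested passed an adjusted p of 0.05 in edgeR's quasi-likelihood test, where p-values were adjusted over all 11062 genes tested (Benjamini-Hochberg) and the smallest of a Hox gene was 0.869. In all genes, 1 gene passed it, 0.00904% of those tested. At an unadjusted p under 0.05 stood 4 Hox genes, *hoxc8a*, *hoxb9a*, *hoxb13a* and *hoxc10a*, all with lower levels in *il26*-/- GF. They are 9.76% of the Hox genes tested, beside 5.32% of all genes tested in either direction and 2.27% in the lower direction, and 0 Hox genes were higher, beside 3.06% of all genes. DESeq2's Wald test put 0 Hox genes under that threshold, and so did edgeR after scaling to total counts only, beside 462 and 550 of all genes. Leaving out WT GF replicate 1 also gave 0, beside 513 of all genes. Leaving out *il26*-/- GF replicate 2 gave 1, beside 467. Leaving out WT GF replicate 3 gave 2, beside 1133 of all genes, the highest count of any setting. Other settings gave more. A filter of at least 1 count in any library gave 6, as did the replicate number as a block, beside 694 and 788 of all genes. A filter of at least 10 counts in every library gave 5, as did limma-voom, beside 531 and 608 of all genes. These counts take both directions. *hoxb5a*, positive in all 14 alternatives (log2 fold change 0.22 to 0.50), was under that threshold in 2 of them. Each standard error (SE) was derived from the log2 fold change and the F statistic of the quasi-likelihood test. The 95% intervals were built from it. For 36 of the 41 genes the 95% interval of the log2 fold change lay within -1 to 1, so that for these a change of 2-fold or more lay outside the interval. The other 5 were *hoxa1a*, *hoxc1a*, *hoxa2b*, *hoxa11a* and *hoxd12a*, with 112 to 333 counts each over all libraries.

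**Figure D1:**
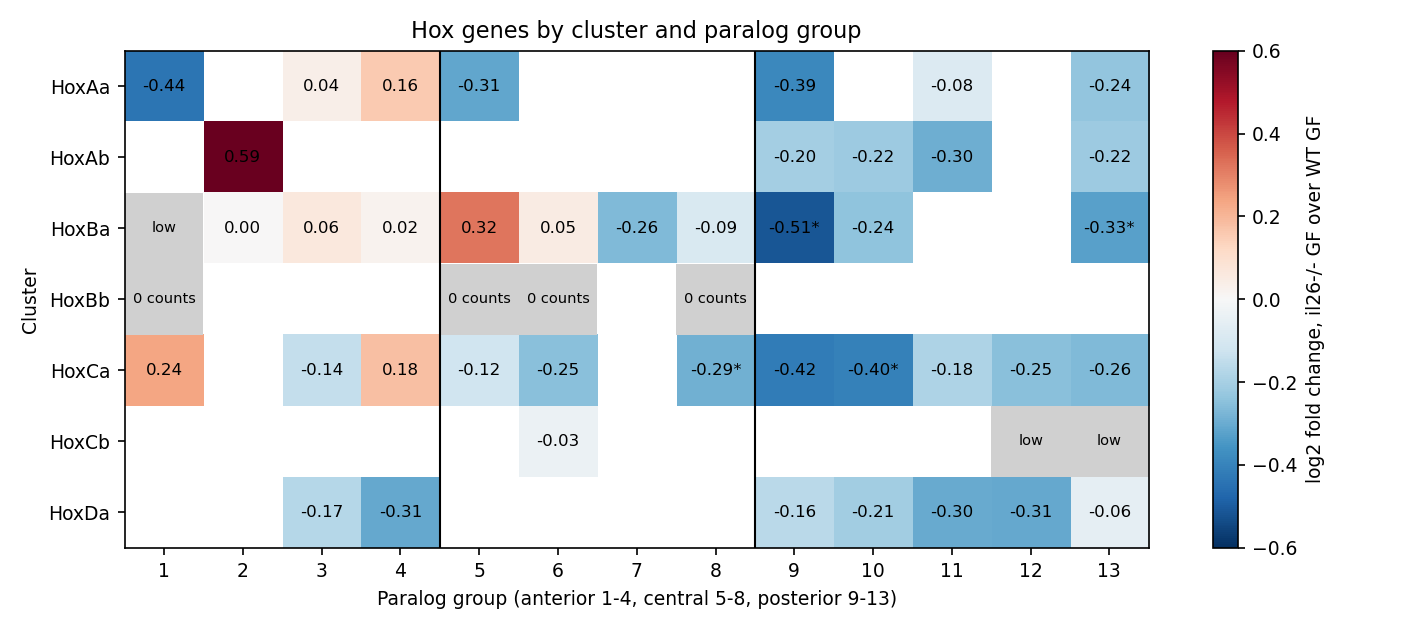
Log2 fold change (*il26*-/- GF over WT GF) of each Hox gene, laid out by cluster (rows) and paralog group (columns), from edgeR's fit to 3 libraries per group; stars mark an unadjusted p under 0.05, grey cells were not tested ("0 counts" in every library, or "low" counts), and white cells without a number have no row in the table. All 20 posterior cells tested hold negative values, between -0.51 and -0.06 (95% of them negative after scaling to total counts only), while 8 of the 12 anterior cells tested hold positive ones.

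*hoxc8a*, which in mouse patterns the thoracic skeleton and brachial motor neurons, measured 10.7, 10.3 and 9.91 CPM across WT GF and 8.36, 8.14 and 8.8 CPM across *il26*-/- GF libraries. Every WT GF library was above every *il26*-/- GF library, and the spread within groups was the smallest of any Hox gene tested, with a pooled SD of 0.0519 on log2(CPM + 0.5). Its log2 fold change was -0.29 (SE 0.107, unadjusted p = 0.0294, adjusted p = 0.869 in edgeR). *hoxb9a*, whose paralogs act together in mouse in the rib cage, measured 4.79, 3.54 and 4.96 CPM in the WT GF libraries against 2.95, 2.83 and 3.58 CPM in *il26*-/- GF. WT GF replicate 2 lay just below *il26*-/- GF replicate 3, so the groups overlapped by that pair. The log2 fold change of *hoxb9a* was -0.51, the most negative of the 41 (SE 0.196, unadjusted p = 0.033, adjusted p = 0.869). *hoxb13a*, the last gene of its cluster, related to a mouse gene of the tail and prostate, measured 28.4, 24.1 and 29.3 CPM across WT GF and 24.3, 22.4 and 18.8 CPM across *il26*-/- GF libraries. *il26*-/- GF replicate 1 was level with WT GF replicate 2, and the other *il26*-/- GF libraries were lower than all WT GF ones. Its log2 fold change was -0.33 (SE 0.128, unadjusted p = 0.0361, adjusted p = 0.872). *hoxc10a*, of the group that in mouse suppresses ribs at lumbar level, measured 8.19, 7.24 and 9.45 CPM in the WT GF libraries against 7.25, 5.3 and 6.6 CPM in *il26*-/- GF. Here too WT GF replicate 2 and *il26*-/- GF replicate 1 met, at the middle of the range, and with DESeq2's size factors they no longer overlapped. For *hoxc10a* the log2 fold change was -0.40 (SE 0.169, unadjusted p = 0.0453, adjusted p = 0.909).

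Levels did not overlap between the groups for 4 Hox genes, all lower in *il26*-/- GF: *hoxc8a*, *hoxa5a*, *hoxb7a* and *hoxc13a*. They are 9.76% of those tested, beside 9.64% of all genes tested in either direction and 4.83% that were lower, and 0 Hox genes were higher without overlap, beside 4.81% of all genes. *hoxc8a*, *hoxa5a* and *hoxc13a* were free of overlap under all 4 scalings, while the groups of *hoxb7a* overlapped with upper quartile scaling and with total counts only. With DESeq2's size factors *hoxc10a* was also lower without overlap, and with total counts only *hoxa2b* was higher without overlap. *hoxa5a*, in mouse a gene of lung and gut mesenchyme, measured 7.1, 7.29 and 6.91 CPM across WT GF and 5.9, 6.2 and 5.03 CPM across *il26*-/- GF libraries. The log2 fold change of *hoxa5a* was -0.31 (SE 0.133, unadjusted p = 0.0501, adjusted p = 0.935 in edgeR). The gap between its groups was wider than the range within WT GF. *hoxb7a* measured 5.43, 5.52 and 6.0 CPM in the WT GF libraries against 5.41, 4.97 and 3.83 CPM in *il26*-/- GF. Its groups were apart only by the difference between WT GF replicate 1 and *il26*-/- GF replicate 1, and *il26*-/- GF replicate 3 was far below the rest. For *hoxb7a* the log2 fold change was -0.26 (SE 0.164, unadjusted p = 0.15, adjusted p = 1.00). *hoxc13a*, related to a mouse gene of hair and nails, measured 6.96, 7.34 and 7.95 CPM across WT GF and 6.02, 5.89 and 6.66 CPM across *il26*-/- GF libraries. Its lowest WT GF library lay a little above its highest *il26*-/- GF library. The log2 fold change of *hoxc13a* was -0.26 (SE 0.126, unadjusted p = 0.073, adjusted p = 0.99).

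**Figure D2:**
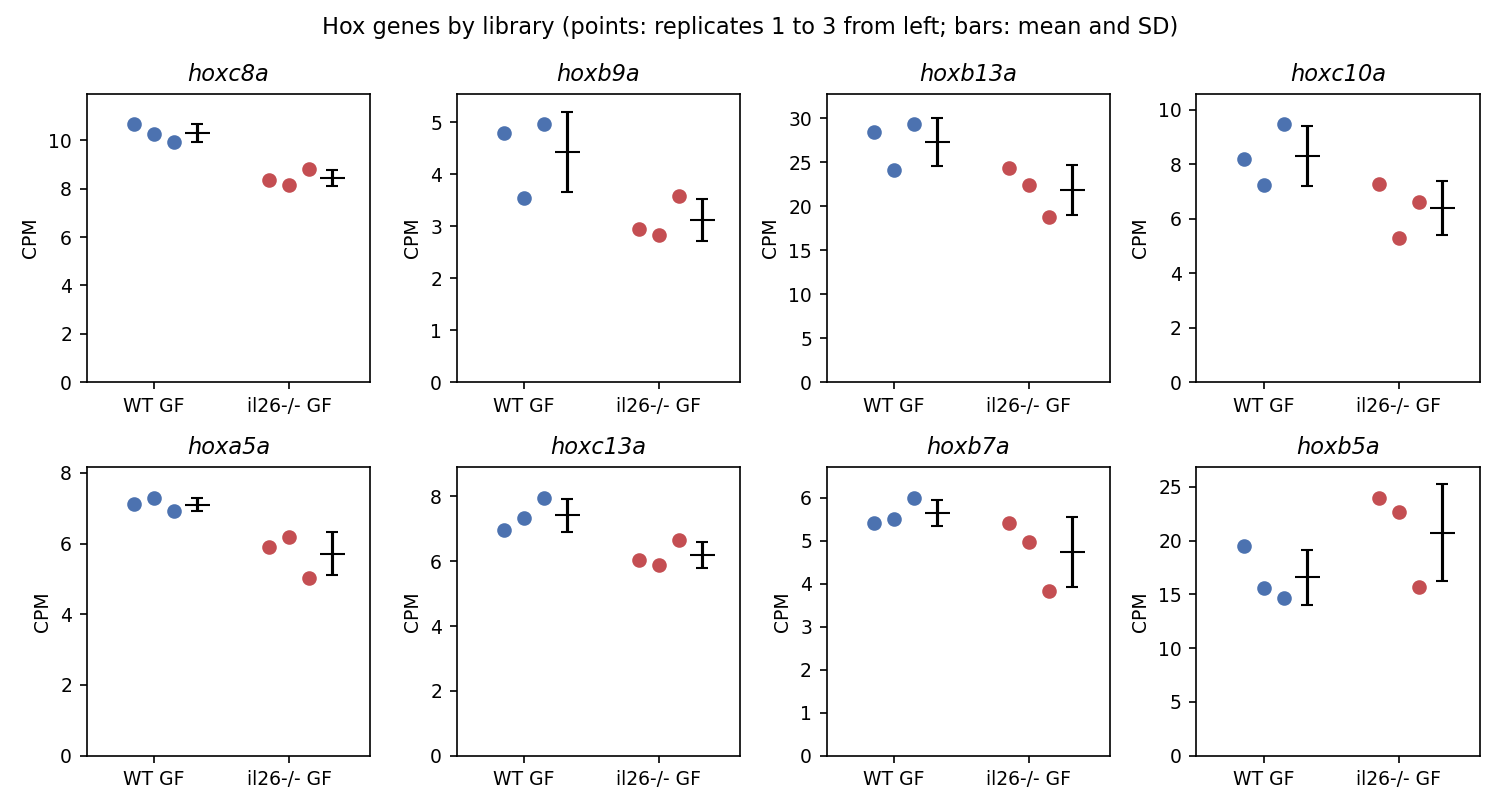
CPM of 8 Hox genes in each library (blue, WT GF; red, *il26*-/- GF; replicates 1 to 3 from left), with the mean and SD of each group (n = 3) in black and each axis starting at 0. The groups are apart for *hoxc8a*, *hoxa5a*, *hoxc13a* and *hoxb7a*, share a narrow stretch for *hoxb9a*, *hoxb13a* and *hoxc10a*, and are in the opposite order, with overlap, for *hoxb5a*.

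Anterior Hox genes stood on both sides of 0, with 8 of 12 tested positive and 4 negative, a median log2 fold change of 0.03, and 0 at an unadjusted p under 0.05. The negative share, 33.3%, became 66.7% without WT GF replicate 3 or without *il26*-/- GF replicate 1. Groups 1 and 2 hold genes of hindbrain segments and pharyngeal arches and had few counts. *hoxa1a* measured 1.28, 1.52 and 0.848 CPM in the WT GF libraries against 0.369, 1.25 and 0.691 CPM in *il26*-/- GF. *hoxc1a* measured 1.83, 0.709 and 0.978 CPM across WT GF and 1.48, 1.4 and 1.26 CPM across *il26*-/- GF libraries. Both varied more between libraries of one genotype than between the genotype means. *hoxa2b*, which with *hoxb2a* sets the identity of the hyoid arch in zebrafish, measured 0.888, 0.405 and 0.782 CPM in the WT GF libraries against 1.48, 0.842 and 1.07 CPM in *il26*-/- GF. *hoxb2a* measured 3.95, 4.15 and 4.01 CPM across WT GF and 4.3, 3.83 and 4.08 CPM across *il26*-/- GF libraries. The *hoxb2a* levels were nearly the same in all 6 libraries, with a log2 fold change of 0.002 whose sign depended on the setting, while *hoxa2b* had the most positive value of the set, 0.59 (SE 0.376), with overlap. *hoxb1a*, a gene of facial motor neurons in zebrafish, was not tested and had 1, 1 and 6 counts in WT GF and 1, 18 and 5 counts in *il26*-/- GF.

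Group 3 genes pattern the caudal hindbrain and the posterior pharyngeal arches. *hoxc3a*, the Hox gene with the most counts (11% of all Hox counts), measured 36.4, 34.7 and 36.1 CPM in the WT GF libraries against 36.6, 31.1 and 29.8 CPM in *il26*-/- GF. The WT GF libraries lay close together, and *il26*-/- GF replicate 1 was above them all while replicates 2 and 3 were below, for a log2 fold change of -0.14 (SE 0.101, unadjusted p = 0.20, adjusted p = 1.00 in edgeR). *hoxa3a* measured 12.2, 9.72 and 10 CPM across WT GF and 11.9, 11 and 9.93 CPM across *il26*-/- GF libraries. Its range in *il26*-/- GF lay wholly within that in WT GF, and its log2 fold change was 0.04 (SE 0.135, unadjusted p = 0.791, adjusted p = 1.00). *hoxb3a* measured 18.1, 15.4 and 12.5 CPM in the WT GF libraries against 17.8, 17 and 13.3 CPM in *il26*-/- GF. *hoxd3a* measured 10.2, 8.15 and 10.2 CPM across WT GF and 9.1, 8.24 and 8.23 CPM across *il26*-/- GF libraries. In *hoxb3a* the third library of each group was the lowest, whereas in *hoxd3a* WT GF replicate 2 was the lowest of all. Group 4 genes mark the border of hindbrain and spinal cord. *hoxa4a* measured 7.01, 5.16 and 4.92 CPM in the WT GF libraries against 6.27, 6.89 and 5.78 CPM in *il26*-/- GF. *hoxb4a* measured 10.1, 8.61 and 7.17 CPM across WT GF and 9.84, 9.51 and 6.85 CPM across *il26*-/- GF libraries. The genotypes overlapped for both, with log2 fold changes of 0.16 and 0.02. *hoxc4a* measured 4.44, 3.49 and 3.98 CPM in the WT GF libraries against 4.67, 5.33 and 3.39 CPM in *il26*-/- GF. *hoxd4a* measured 4.49, 3.44 and 3.65 CPM across WT GF and 3.69, 2.52 and 3.39 CPM across *il26*-/- GF libraries. For *hoxc4a* the highest and the lowest library were both *il26*-/- GF, and for *hoxd4a*, with a log2 fold change of -0.31, *il26*-/- GF replicate 2 was the lowest.

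Central Hox genes were mostly on the negative side, with 7 of 9 tested negative and a median log2 fold change of -0.12. *hoxb5a*, whose mouse relative *Hoxb5* acts in neural crest cells that form enteric neurons, measured 19.5, 15.6 and 14.7 CPM in the WT GF libraries against 24, 22.6 and 15.6 CPM in *il26*-/- GF. *il26*-/- GF replicates 1 and 2 were above every WT GF library, and replicate 3 was level with WT GF replicate 2. Its log2 fold change was 0.32 (SE 0.185, unadjusted p = 0.123, adjusted p = 1.00 in edgeR), the most positive of the central genes. *hoxc5a* measured 1.53, 1.87 and 1.86 CPM across WT GF and 1.84, 1.48 and 1.63 CPM across *il26*-/- GF libraries. The genotypes of *hoxc5a* overlapped. *hoxb6a* measured 2.07, 2.38 and 1.73 CPM in the WT GF libraries against 2.46, 2.6 and 1.26 CPM in *il26*-/- GF. *hoxc6a* measured 2.07, 2.58 and 2.25 CPM across WT GF and 1.6, 1.81 and 2.32 CPM across *il26*-/- GF libraries. *hoxc6b*, the only Cb gene tested, measured 9.87, 4.91 and 6.23 CPM in the WT GF libraries against 6.15, 5.43 and 8.98 CPM in *il26*-/- GF. The spread of *hoxc6b* within groups was the widest of the Hox genes, a pooled SD of 0.420 on log2(CPM + 0.5), and the highest 2 values came from WT GF replicate 1 and *il26*-/- GF replicate 3. Its log2 fold change was -0.03 (SE 0.297, unadjusted p = 0.913, adjusted p = 1.00). *hoxb8a*, of a group that in mouse acts in the spinal cord, measured 7.7, 7.49 and 6.46 CPM across WT GF and 6.39, 7.91 and 5.78 CPM across *il26*-/- GF libraries. *il26*-/- GF replicate 2 was the highest library of *hoxb8a* and replicate 3 the lowest.

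**Figure D3:**
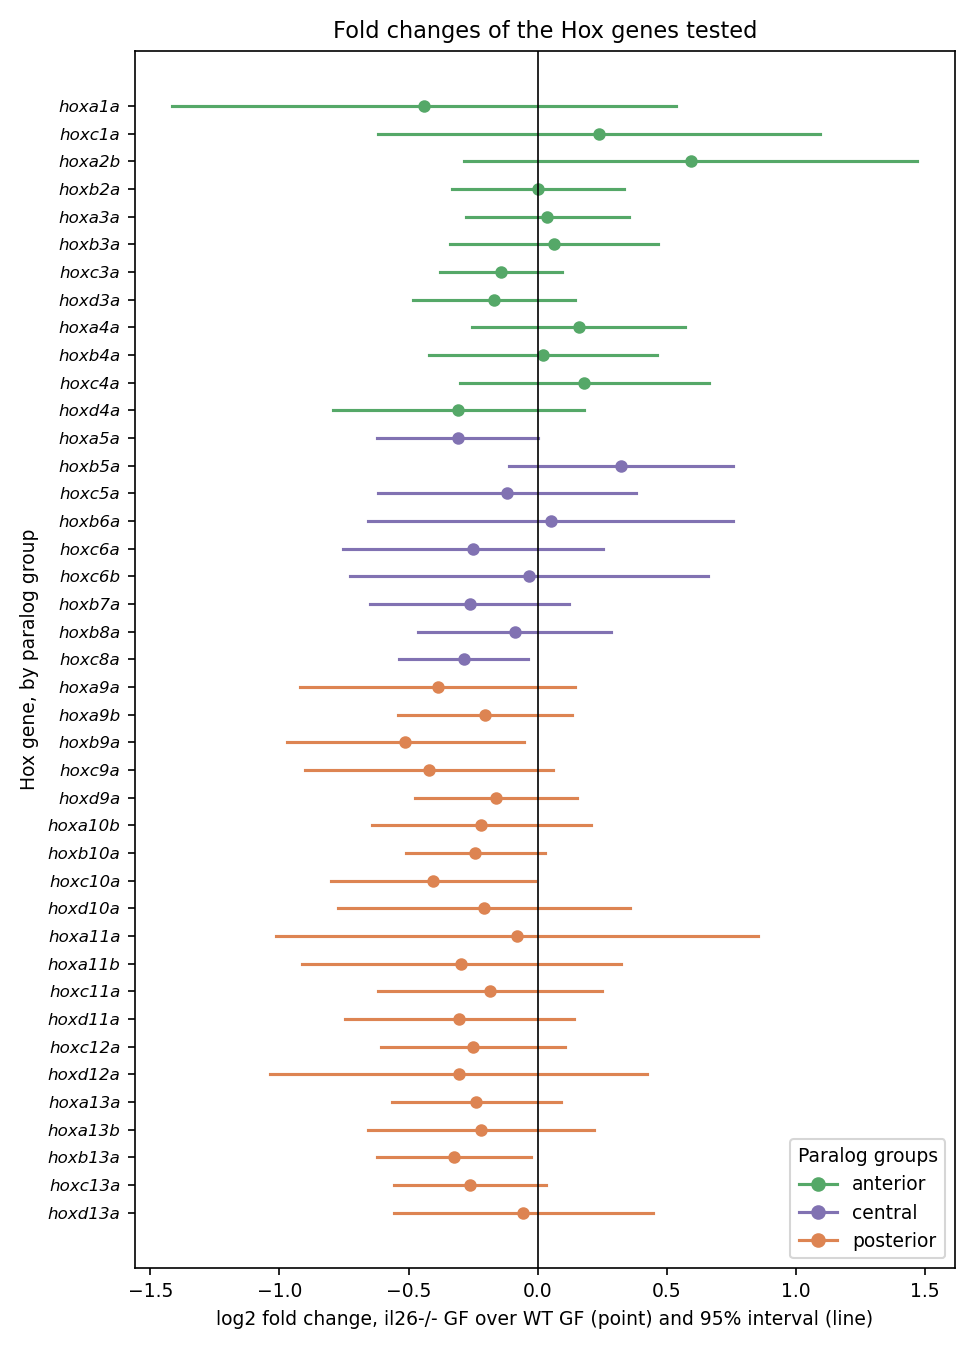
Log2 fold change (*il26*-/- GF over WT GF, point) with its 95% interval (line) for the 41 Hox genes tested, ordered by paralog group and coloured by level, from edgeR's fit to 3 libraries per group. The intervals of *hoxc8a*, *hoxb9a*, *hoxc10a* and *hoxb13a* end below 0, all 20 posterior points lie left of 0 (95% of them after scaling to total counts only), and the anterior points lie on both sides.

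Posterior Hox genes lay on one side: all 20 tested had a negative log2 fold change, beside 50.4% of all genes tested, with a median of -0.25 beside -0.0011 over all genes and a range of -0.51 to -0.06, and with total counts only as scaling 95% were negative. Of these, 3 had an unadjusted p under 0.05, 15% of those tested, beside 5.32% of all genes in either direction and 2.27% in the lower direction. Without overlap between the groups was 1 of the 20, near the share over all genes (9.64% in either direction, 4.83% lower). The posterior values share libraries and are not independent of each other. The highest library was WT GF replicate 3 for 10 of the 20 and WT GF replicate 1 for 8, and the lowest was *il26*-/- GF replicate 2 for 9 and *il26*-/- GF replicate 3 for 8, while WT GF replicate 2 and *il26*-/- GF replicate 1 mostly lay between. Without WT GF replicate 3 or without *il26*-/- GF replicate 2, 90.0% were negative. The groups at these levels act in the trunk, tail, fins and hindgut, and in bulk tissue fewer cells of a type and less RNA per cell cannot be told apart.

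Group 9 comprises *hoxa9a*, *hoxa9b*, *hoxc9a* and *hoxd9a* beside *hoxb9a*. *hoxa9a* measured 8.48, 6.23 and 6.16 CPM in the WT GF libraries against 6.76, 5.51 and 3.9 CPM in *il26*-/- GF. *hoxa9b* measured 6.86, 6.12 and 6.46 CPM across WT GF and 6.39, 4.95 and 5.78 CPM across *il26*-/- GF libraries. In both, WT GF replicate 1 was the highest library, and *hoxa9b*, one of the 2 Ab genes with the highest CPM, had a log2 fold change of -0.20 (SE 0.145, unadjusted p = 0.199, adjusted p = 1.00 in edgeR). *hoxc9a* measured 4.74, 3.7 and 3.23 CPM in the WT GF libraries against 3.32, 2.88 and 2.58 CPM in *il26*-/- GF. *hoxd9a* measured 11, 9.87 and 11.2 CPM across WT GF and 10.6, 10 and 8.17 CPM across *il26*-/- GF libraries. *hoxc9a* overlapped only between WT GF replicate 3 and *il26*-/- GF replicate 1. For *hoxd9a* the log2 fold change was -0.16 (SE 0.134, unadjusted p = 0.263, adjusted p = 1.00). Of group 10, *hoxa10b* measured 13.1, 9.26 and 12.3 CPM in the WT GF libraries against 10.8, 8.14 and 11.1 CPM in *il26*-/- GF. *hoxb10a* measured 15.8, 13.6 and 15.2 CPM across WT GF and 13.8, 11.6 and 12.6 CPM across *il26*-/- GF libraries. *hoxd10a* measured 7.89, 6.18 and 8.9 CPM in the WT GF libraries against 9.1, 4.97 and 6.53 CPM in *il26*-/- GF. *hoxb10a* overlapped only between WT GF replicate 2 and *il26*-/- GF replicate 1, with a log2 fold change of -0.24 (SE 0.115), whereas *hoxd10a* had its highest and its lowest value in *il26*-/- GF libraries. The log2 fold change of *hoxa10b* was -0.22 (SE 0.182, unadjusted p = 0.265, adjusted p = 1.00).

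Group 11 genes act in mouse in the forearm, sacral spine and kidney. *hoxa11a* measured 1.28, 0.557 and 1.73 CPM across WT GF and 1.11, 1.1 and 1.26 CPM across *il26*-/- GF libraries. *hoxa11b* measured 2.76, 1.97 and 2.38 CPM in the WT GF libraries against 2.09, 2.32 and 1.32 CPM in *il26*-/- GF. Few counts lay on either, and the 2 WT GF libraries at the ends of the *hoxa11a* range enclosed every *il26*-/- GF library. *hoxc11a* measured 4.93, 4.3 and 4.76 CPM across WT GF and 5.04, 4.18 and 3.27 CPM across *il26*-/- GF libraries. *hoxd11a* measured 12.2, 8.86 and 10.4 CPM in the WT GF libraries against 7.38, 7.45 and 10.6 CPM in *il26*-/- GF. For *hoxd11a* *il26*-/- GF replicates 1 and 2 lay below all WT GF libraries and replicate 3 among them, for a log2 fold change of -0.30 (SE 0.189, unadjusted p = 0.151, adjusted p = 1.00 in edgeR). Of group 12, *hoxc12a* measured 5.87, 6.18 and 7.34 CPM across WT GF and 5.29, 5.0 and 6.09 CPM across *il26*-/- GF libraries. *hoxd12a* measured 3.35, 1.77 and 3.23 CPM in the WT GF libraries against 3.07, 1.79 and 2.26 CPM in *il26*-/- GF. In *hoxd12a* replicate 2 of each genotype was the lowest, at nearly the same level. Group 13 genes act at the ends of the body axis and of the appendages, and in mouse *Hoxa13* and *Hoxd13* are needed for the hindgut and the digits. *hoxa13a* measured 14.6, 12.2 and 16 CPM across WT GF and 13.8, 11.5 and 11.4 CPM across *il26*-/- GF libraries. *hoxa13b* measured 5.13, 4.71 and 7.01 CPM in the WT GF libraries against 5.16, 4.97 and 4.46 CPM in *il26*-/- GF. *hoxd13a* measured 5.53, 5.26 and 7.69 CPM across WT GF and 7.62, 5.25 and 5.4 CPM across *il26*-/- GF libraries. *hoxa13a* had a log2 fold change of -0.24 (SE 0.14, unadjusted p = 0.131, adjusted p = 1.00), and *hoxd13a*, with -0.06, lay closest to 0 of the posterior genes. The Cb genes *hoxc12b* (3, 5 and 3 counts in WT GF; 0, 4 and 0 in *il26*-/- GF) and *hoxc13b* (2, 2 and 3 counts; 0, 1 and 0) were near the floor of 3 counts, and no fold was taken.

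Summed by level, the anterior genes reached 111, 95.6 and 95.5 CPM in the WT GF libraries and 108, 99.4 and 88 CPM in the *il26*-/- GF libraries. The central genes reached 65.9, 57.9 and 56 CPM in WT GF against 62.1, 61.2 and 53.3 CPM in *il26*-/- GF. The posterior genes reached 172, 143 and 176 CPM in WT GF against 152, 128 and 132 CPM in *il26*-/- GF. All 3 sums overlapped, and for the posterior one *il26*-/- GF replicate 1 exceeded WT GF replicate 2. The log2 ratio of the group means was -0.03 for the anterior, -0.03 for the central and -0.25 for the posterior sum, and with total counts only the first 2 were 0.06 and 0.07 and the last -0.17. The sums were also taken by cluster, by paralog group and by level within a cluster. These sums share genes and are not independent of each other, and most of them overlapped between the genotypes. Beside them, 9.64% of all single genes tested were without overlap in either direction and 4.83% were lower without overlap. A sum averages over its genes, so these shares are not a like measure for sums, and no share for sums of other genes was taken. Lower in *il26*-/- GF without overlap was the sum of the 11 Ca genes, with 87.6, 82.4 and 87.8 CPM across WT GF and 81.5, 72.5 and 72.4 CPM in *il26*-/- GF. Within that cluster both the central genes, with 14.3, 14.7 and 14 CPM in WT GF against 11.8, 11.4 and 12.8 CPM in *il26*-/- GF, and the posterior genes, with 30.7, 28.8 and 32.7 CPM against 26.9, 23.3 and 25.2 CPM, were apart. The posterior Ba genes were apart as well, with 48.9, 41.3 and 49.4 CPM in WT GF against 41.1, 36.8 and 34.9 CPM in *il26*-/- GF, and so was paralog group 8, with 18.4, 17.8 and 16.4 CPM against 14.8, 16 and 14.6 CPM. Of the mean of group 8, *hoxc8a* made up 10.3 of 17.5 CPM in WT GF and 8.43 of 15.1 CPM in *il26*-/- GF. The same gene is counted in the central Ca sum, and *hoxb8a* of group 8 overlapped. The remaining sums without overlap, all lower in *il26*-/- GF, were those of single genes described above (*hoxb7a* for paralog group 7, *hoxa5a* for central Aa) and that of *hoxc12b* and *hoxc13b*, which are near the floor. With 3 libraries against 3 an exact two-sided permutation test cannot go below p = 0.1, so no sum was tested. The sums of all Ca and of posterior Ba genes overlapped between the genotypes with upper quartile scaling and with total counts only, and those of posterior Ca genes and of paralog group 8 with total counts only.

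A ratio of counts within a library does not depend on scaling, and its absolute size depends on transcript length. Posterior over anterior counts were 1.55, 1.5 and 1.84 across WT GF and 1.41, 1.29 and 1.5 in *il26*-/- GF, with *il26*-/- GF replicate 3 just above WT GF replicate 2. In the Ba cluster the same ratio was 1.52, 1.46 and 2.07 in WT GF against 1.28, 1.19 and 1.43 in *il26*-/- GF, without overlap. In the Da cluster it was 2.72, 2.76 and 2.98 in WT GF against 2.95, 2.74 and 2.84 in *il26*-/- GF, with overlap. Between the Ba genes of highest CPM, *hoxb13a* over *hoxb5a* was 1.46, 1.55 and 2.0 across WT GF and 1.02, 0.988 and 1.2 in *il26*-/- GF, without overlap. This ratio is not separate from that of the Ba cluster, nor from the single genes, with log2 fold changes of -0.33 (*hoxb13a*) and 0.32 (*hoxb5a*). No such pair was taken in the other clusters. *hoxb13a* made up 27.3 of the mean 46.6 CPM of posterior Ba genes in WT GF and 21.8 of 37.6 CPM in *il26*-/- GF. Central over anterior counts stayed between 0.576 and 0.615 in all 6 libraries.

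**Figure D4:**
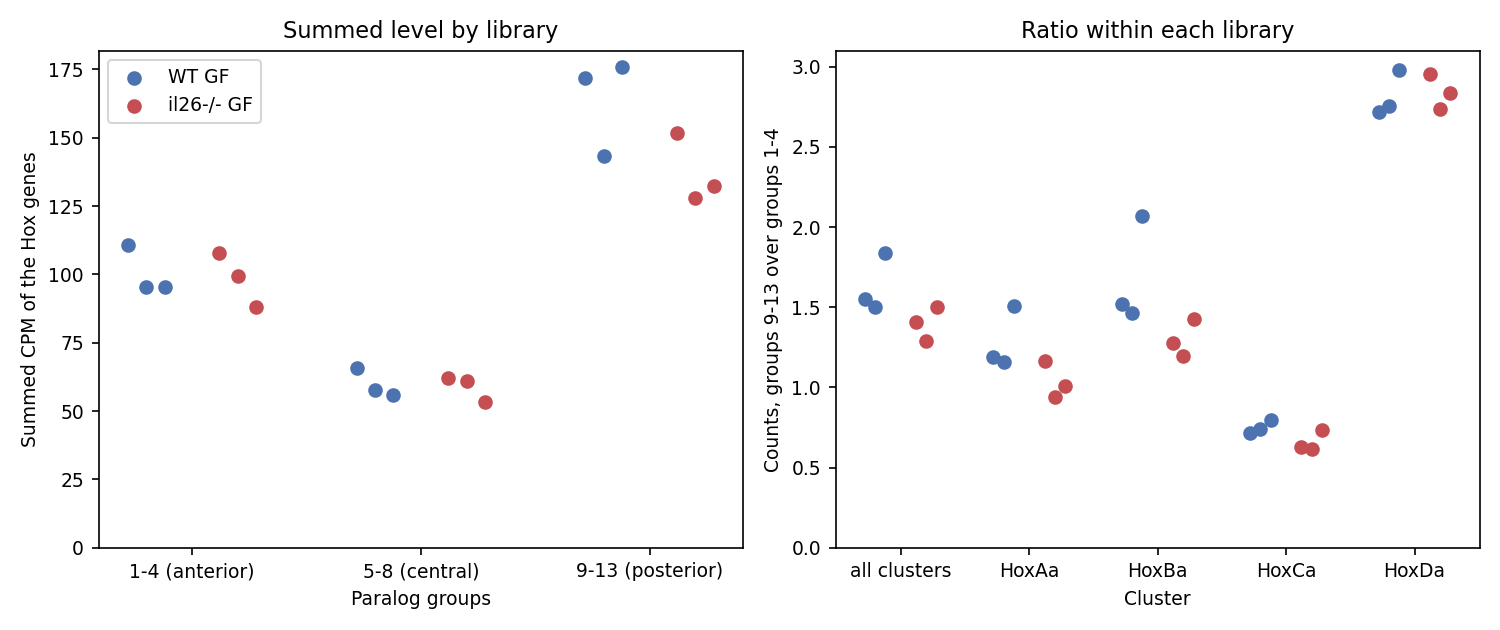
Left, summed CPM of the anterior, central and posterior Hox genes in each library; right, counts on posterior over counts on anterior Hox genes within each library, over all clusters and in the Aa, Ba, Ca and Da clusters (blue, WT GF; red, *il26*-/- GF; replicates 1 to 3 from left). Anterior and central sums intermingle, and among these 4 clusters only the Ba ratio has every *il26*-/- GF library (at most 1.43) below every WT GF library (at least 1.46).

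Duplicates that stem from the teleost genome duplication could be compared as count ratios within a library. *hoxa13a* over *hoxa13b* was 2.85, 2.6 and 2.28 across WT GF and 2.67, 2.3 and 2.56 in *il26*-/- GF. *hoxa9a* over *hoxa9b* was 1.24, 1.02 and 0.955 in WT GF against 1.06, 1.11 and 0.674 in *il26*-/- GF. *hoxa11a* over *hoxa11b* was 0.464, 0.282 and 0.726 in WT GF against 0.529, 0.473 and 0.952 in *il26*-/- GF. Each of these ratios overlapped between the genotypes. How reads shared by duplicates were assigned is not given in the sources used here, nor is the strand setting of the counting, although the library kit kept the strand. In the RefSeq gene table of another assembly, GRCz12tu, the span of *hoxc3a* overlaps those of *hoxc4a*, *hoxc5a*, *hoxc6a*, *hoxc8a* and *hoxc9a*, that of *hoxb3a* overlaps those of *hoxb4a*, *hoxb5a* and *hoxb6a*, that of *hoxa3a* overlaps those of *hoxa4a* and *hoxa5a*, and that of *hoxd3a* overlaps that of *hoxd4a*. The span of the even-skipped gene *evx1* overlaps those of all 7 Aa genes, *hoxa1a*, *hoxa3a*, *hoxa4a*, *hoxa5a*, *hoxa9a*, *hoxa11a* and *hoxa13a*. Counts of these genes may therefore hold reads of a neighbour. Exon overlap was not examined.

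All 4 Bb genes, *hoxb1b*, *hoxb5b*, *hoxb6b* and *hoxb8b*, had 0 counts in all 6 libraries. By gene order in the RefSeq table they lay in a run of 9 neighbouring rows with 0 or 1 count in all libraries together. The run also holds *ttll6* and *nbr1a* with 1 count each, and *mir10a*, *skap1* and *psme3* with 0. *psme3* encodes a proteasome activator subunit that is found in most cells. Just outside it, *chmp2a*, a gene of membrane scission, had 12025 counts and *tmem106a* had 117. Among the 14311 rows matched to a placed gene, 12.8% had 0 or 1 count, and 11 of 1049 runs of such rows were at least as long, with the longest at 34 rows. Whether the Bb genes were transcribed could therefore not be read from these counts.

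**Figure D5:**
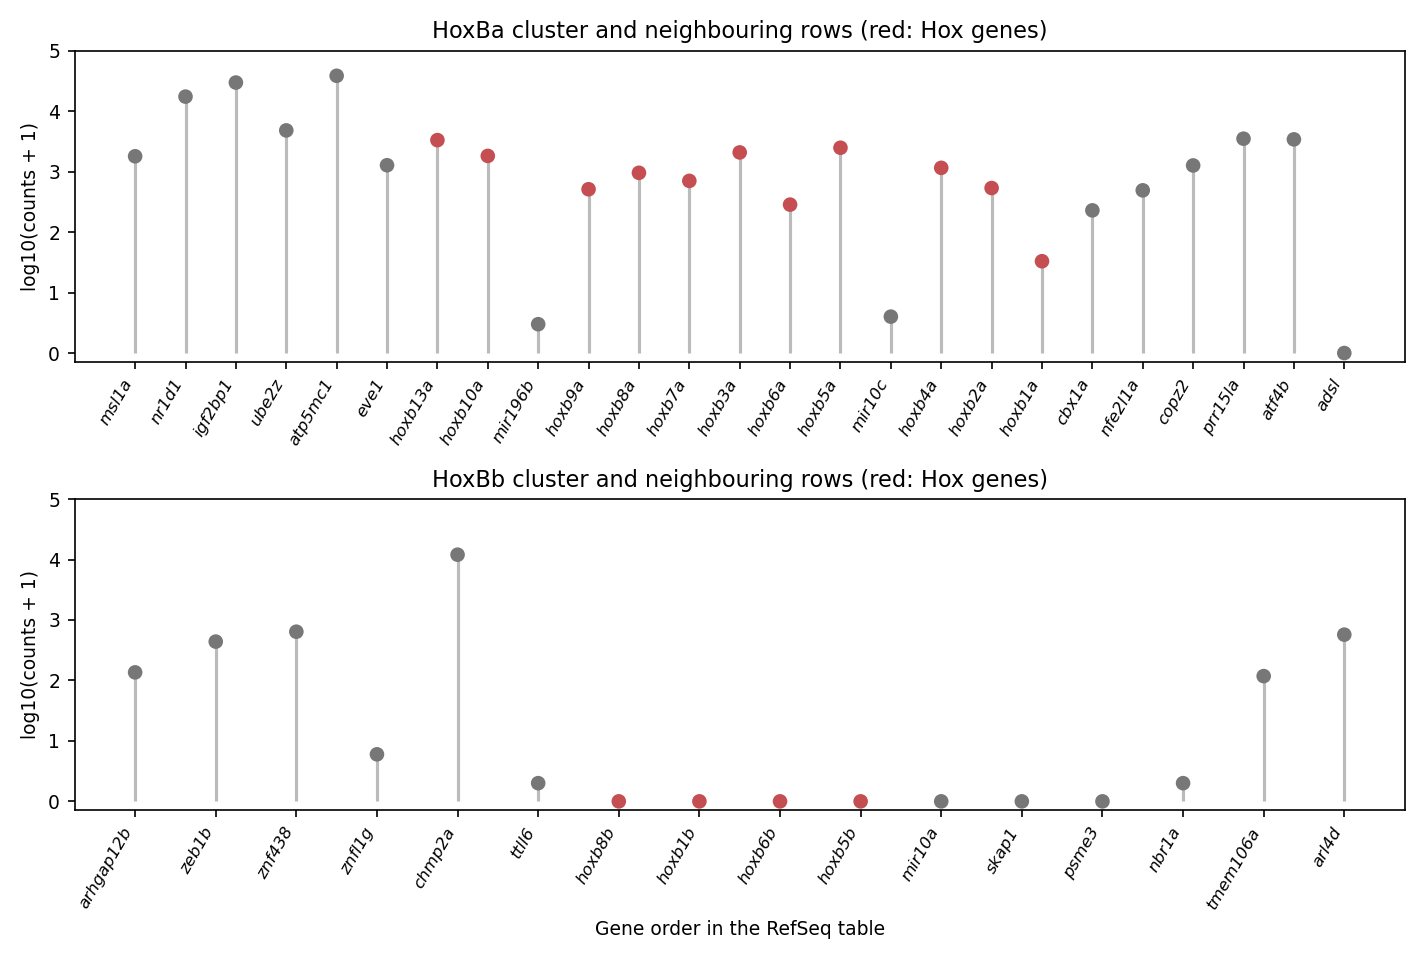
Counts summed over the 6 libraries, as log10(counts + 1), for the rows of the Ba cluster (top) and the Bb cluster (bottom) and their neighbours, in the gene order of the RefSeq table (red, Hox genes; grey, other rows). The Ba genes range from 32 counts (*hoxb1a*) to 3324 counts (*hoxb13a*), while the 4 Bb genes and the rows beside them from *ttll6* to *nbr1a* have 0 or 1 count.

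The even-skipped relatives at the posterior ends of the clusters share their place with the group 13 genes. *eve1*, a tail bud gene in zebrafish that lies beside *hoxb13a*, measured 10.9, 9.82 and 11.3 CPM in the WT GF libraries against 8.61, 8.34 and 7.54 CPM in *il26*-/- GF. Every WT GF library was above every *il26*-/- GF library. Its log2 fold change was -0.39 (SE 0.118, unadjusted p = 0.0121, adjusted p = 0.67 in edgeR). *evx1*, whose annotated span overlaps the Aa genes, *hoxa13a* included, so that its counts may not be separate from theirs, measured 19.6, 14.9 and 17.6 CPM across WT GF and 16.2, 15.4 and 14.3 CPM across *il26*-/- GF libraries, with overlap and a log2 fold change of -0.19. *evx2* had 13 counts in all and was not tested. Of the 6 ParaHox and eve genes tested, 1 was higher and 1 lower at an unadjusted p under 0.05, beside 3.06% and 2.27% of all genes. The higher one, the ParaHox gene *pdx1*, a regulator of pancreas and foregut, measured 6.17, 8.5 and 5.74 CPM in the WT GF libraries against 8.73, 10.9 and 10.9 CPM in *il26*-/- GF. Its groups did not overlap, and its log2 fold change was 0.60 (SE 0.182, unadjusted p = 0.0123, adjusted p = 0.674), opposite in sign to the posterior Hox genes. The caudal gene with the most counts, *cdx1b*, a factor of intestinal epithelium, measured 139.8, 97 and 147 CPM across WT GF and 124, 120.2 and 142 CPM across *il26*-/- GF libraries, with overlap and a log2 fold change of 0.01.

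Genes that work with Hox proteins or act on the clusters were taken as lists by function. TALE cofactors, homeodomain partners that bind DNA together with Hox proteins, had 9 of 12 tested positive, a median log2 fold change of 0.07 and 2 at an unadjusted p under 0.05, both higher (beside 3.06% of all genes tested that were higher and 5.32% in either direction): *pbx1a* (0.47, SE 0.177) and *meis2b* (0.60, SE 0.191). Their gene with the highest CPM, *meis1b*, measured 51.6, 50.9 and 47.7 CPM in the WT GF libraries against 52.1, 55.1 and 46.4 CPM in *il26*-/- GF. Retinoic acid activates Hox genes from their anterior side, and of its 18 pathway genes tested 10 were positive, with a median of 0.05. Of these 18, 2 had an unadjusted p under 0.05, beside the same 3.06% and 5.32% of all genes, the retinoic acid binding proteins *crabp1b* (1.42, SE 0.396) and *crabp2a* (1.71, SE 0.441), both higher in *il26*-/- GF. Both were at low levels, and *crabp2a* measured 0.395, 0.658 and 0.424 CPM across WT GF and 2.46, 1.73 and 0.817 CPM across *il26*-/- GF libraries. The receptor gene *rxrba*, with the highest CPM of the list, had a log2 fold change of 0.05. Polycomb and Trithorax genes, which hold Hox clusters silent or active and were listed here with *ctcf*, had 12 of 25 tested positive and a median of -0.00086. Among them *eed*, a subunit of the complex that methylates histone H3 lysine 27, was the only one of the 25 at an unadjusted p under 0.05, beside 2.27% of all genes that were lower, with a log2 fold change of -0.35 (SE 0.15), and *rnf2*, with the highest CPM, had -0.00086. None of these genes passed the adjusted threshold.

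Marker genes of other tissues that transcribe Hox genes, and of the gut cell types known for them, were measured in the same libraries. Of 16 skeletal muscle genes 13 were tested, 8 of them at an unadjusted p under 0.05 and higher in *il26*-/- GF, beside 3.06% of all genes tested that were higher, and the median log2 fold change was 0.67. These 8 were *acta1b*, *tnnt3a*, *tnnt3b*, *myhz2*, *atp2a1*, *mybpc2b*, *casq2* and *tnni2b.1*, genes of the contractile filaments and of calcium handling. Their log2 fold changes ran from 0.48 (*acta1b*) to 1.89 (*myhz2*), with adjusted p from 0.487 (*atp2a1*) to 0.927 (*acta1b*) in edgeR. Of the 13 tested, 11 were positive and 2 negative, *mylpfb* (-0.97, SE 0.555) and *pvalb1* (-0.63, SE 0.648). *myhz1.1* lay at 0.05 (SE 1.33). The fast myosin gene *myhz2* measured 128, 65.3 and 48.4 CPM in the WT GF libraries against 237, 463 and 192 CPM in *il26*-/- GF. *actc1b*, an actin gene with the highest CPM of the list, had a log2 fold change of 0.54 (SE 0.249, unadjusted p = 0.0645). The summed level of the muscle genes was 1146 to 2389 CPM in WT GF and 2069 to 3442 CPM in *il26*-/- GF, with overlap. Of the spinal neuron genes *mnx1*, *olig2*, *lhx3* and *slc6a5* are listed at 0 counts, which cannot be read as absence. Only *nkx6.1*, a factor of the ventral spinal cord and of the pancreas, was tested. It measured 0.789, 0.658 and 0.619 CPM across WT GF and 1.23, 0.969 and 1.26 CPM across *il26*-/- GF libraries, without overlap, with a log2 fold change of 0.71 (SE 0.271, unadjusted p = 0.0327, adjusted p = 0.869 in edgeR). The spinal neuron genes summed to 0.717 to 1.01 CPM in WT GF and 1.2 to 1.63 CPM in *il26*-/- GF, also without overlap. That sum mostly repeats *nkx6.1*, which made up 0.689 of the mean 0.873 CPM in WT GF and 1.15 of 1.39 CPM in *il26*-/- GF. Pectoral fin genes summed to 4.61 to 7.76 CPM in WT GF and 2.71 to 16.5 CPM in *il26*-/- GF, and pronephros genes to 4.91 to 5.93 CPM and 4.8 to 5.4 CPM. Of the 16.5 CPM, found in *il26*-/- GF replicate 2, *and2* held 10.4 CPM. The pronephros sum mostly repeats *atp1a1a.5*, which made up 5.23 of the mean 5.54 CPM in WT GF and 4.67 of 5.01 CPM in *il26*-/- GF. Enteric neuron genes had 9 of 10 negative, with a median of -0.12, and *phox2bb*, a defining factor of these neurons, had -0.21 (SE 0.0911) with an unadjusted p of 0.0483, the 1 of 10 under that threshold, beside 2.27% of all genes that were lower. They summed to 238 to 268 CPM in WT GF and 219 to 255 CPM in *il26*-/- GF. Gut mesenchyme and smooth muscle genes had 5 of 6 tested negative, with a median of -0.12, and summed to 2665 to 3303 CPM and 2508 to 2979 CPM. In the remaining marker lists 3 genes had an unadjusted p under 0.05, beside 5.32% of all genes tested in either direction. They were *apoa1a* of proximal enterocytes (log2 fold change -0.37, SE 0.126), *hbbe1.1* of erythrocytes (-0.89, SE 0.167) and *icn* of epidermis (0.83, SE 0.297). Each was the only one in its list, of 7, 5 and 5 tested. Their adjusted p in edgeR was 0.772, 0.336 and 0.858. The genes of highest CPM in the lists of gut cells were *vil1*, *apobb.1*, *ctsl.1*, *fabp6*, *cftr*, *acta2* and *vipb*, with log2 fold changes between -0.20 (*apobb.1*) and 0.10 (*cftr*). Those of the other tissues were *and1* (pectoral fin), *atp1a1a.5* (pronephros), *krt4* (epidermis), *apoa2* (hepatocytes), *prss1* (exocrine pancreas) and *hbae3* (erythrocytes), with log2 fold changes between -0.16 (*atp1a1a.5*) and 0.06 (*krt4*). These single genes do not stand for their lists. Hepatocyte genes had 5 of 7 positive and summed to 5452 to 16019 CPM in WT GF and 8543 to 14001 CPM in *il26*-/- GF. Exocrine pancreas genes had 5 of 5 tested negative and summed to 28302 to 40245 CPM and 24858 to 33583 CPM. Epidermis genes ran from -1.14 (*cyt1*, SE 0.699) to 0.83 (*icn*). The part of these cell types in the Hox values was not tested.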

How the data were processed

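Guts of germ-free larvae were profiled in 3 WT GF and 3 *il26*-/- GF libraries. The authors checked the reads with FastQC v0.11.8, aligned them to danRer11 and deposited raw counts per gene symbol. Libraries were made with a stranded mRNA kit (Illumina TruSeq). The aligner, the counter, its strand setting and the annotation are not given in the sources used here. Each count column was matched to its library by name, and 0 columns were left without a sample.

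Low rows were removed with filterByExpr of edgeR (11062 of 15419 stayed), libraries were scaled by TMM, and genotypes were compared by the two-sided quasi-likelihood test without a block, with p-values adjusted over every gene tested (Benjamini-Hochberg; edgeR 4.0.16, R 4.3.3). Alternatives were DESeq2's size factors, upper quartile and total counts as scaling, at least 1 count in any library or at least 10 in every library as filters, DESeq2 1.42.0, limma-voom (limma 3.58.1), the replicate number as a block, and each library left out. Shares of negative fold changes by level and the count of Hox genes under the adjusted threshold, and overlap between groups under each scaling, were added after seeing the data. The test was checked on simulated counts drawn over all genes tested. Of genes changed 1.5-fold 16.2% passed an adjusted p of 0.05, and of those changed 2-fold 73.5%, so smaller changes were mostly missed in the simulation. The simulated spread followed the trend with level over all genes and not each gene's own spread. These shares may therefore not hold for the Hox genes. Of unchanged genes 4.45% had an unadjusted p under 0.05. Neighbouring genes came from a RefSeq table (GRCz12tu), which matched all 48 Hox rows by symbol; it also lists *hoxc11b*, which was not analysed here. Per-library values are given for the Hox genes that passed the filter; fold changes with errors for those at an unadjusted p under 0.05, those without overlap and the 2 of highest CPM per cluster; and, of the other lists, genes at an unadjusted p under 0.05 and the gene of highest CPM. Members and lists were chosen with earlier results of these data known. P-values set the difference between genotypes against the spread between pooled libraries, and not against that between single larvae. Replicates were not duplicates (chi-square per degree of freedom at least 10.6).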

Additional observations from a re-analysis of the deposited data

How the results depend on the processing

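Across the settings the count of Hox genes at an adjusted p under 0.05 was 0 throughout, and each of *hoxc8a*, *hoxb9a*, *hoxb13a* and *hoxc10a* kept the sign of its fold change in all 14 alternatives. The count of Hox genes at an unadjusted p under 0.05, in either direction, was 4 in the main analysis. With upper quartile scaling it was 2, with total counts only 0 and with DESeq2's Wald test 0, beside 585, 550 and 462 of all genes. When a library was left out, the Hox count was 0 to 4. It was 6 with the replicate block, beside 788 of all genes, and 6 with at least 1 count in any library, beside 694 of all genes. With limma-voom it was 5, beside 608 of all genes, and with at least 10 counts in every library 5, beside 531. The count of all genes at an adjusted p under 0.05, 1 in the main analysis, was 4 with upper quartile scaling, 2 with total counts only, 4 with at least 1 count in any library, 52 with DESeq2, 15 with the replicate block and 0 to 3 when a library was left out. At an unadjusted p under 0.05, 441 to 1133 genes stood when a library was left out, beside 589, with the highest count without WT GF replicate 3. The correlations of deviations between WT GF and *il26*-/- GF libraries of the same replicate number were 0.18, 0.096 and 0.30. Between libraries of different numbers they ran from -0.32 to 0.17. Whether the replicate numbers pair the libraries was not tested.

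The percent of anterior genes with a negative fold change, 33.3 in the main analysis, was 33.3 to 66.7 when a library was left out, with 66.7 without WT GF replicate 3 and without *il26*-/- GF replicate 1. Of the posterior genes 95% were negative with total counts only, with limma-voom and with the replicate block, and 90.0% to 100% when a library was left out. The log2 fold change of *hoxa11a* was 0.0035 with limma-voom and 0.077 with the replicate block, and that of *hoxb2a* was -0.0015 with at least 1 count in any library, -0.00063 with DESeq2 and -0.021 with limma-voom. That of *hoxb6a* was -0.017 with the replicate block, that of *hoxc6b* 0.043 with total counts only and 0.036 with the replicate block, and that of *hoxd13a* 0.025 with total counts only. When a library was left out, the log2 fold change ran from -0.39 to 0.32 for *hoxa11a*, -0.020 to 0.15 for *hoxa3a*, -0.033 to 0.052 for *hoxb2a*, -0.069 to 0.20 for *hoxb3a*, -0.10 to 0.18 for *hoxb4a*, -0.21 to 0.32 for *hoxb6a*, -0.25 to 0.020 for *hoxb8a*, -0.0018 to 0.36 for *hoxc4a*, -0.28 to 0.29 for *hoxc6b*, -0.43 to 0.0080 for *hoxd10a* and -0.22 to 0.14 for *hoxd13a*. The cause of these changes was not tested. Depth limits the genes of few counts, and 3 libraries per group limit all of them.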
